A study of Rattus norvegicus with 2 samples.

Results

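Neurons package mRNAs with RNA-binding proteins that set how long a transcript lasts, where in the cell it travels and when it is translated. Some of these proteins accompany mRNAs into dendrites, where translation can be started or held back near synapses. The values here concern the mRNAs that encode such proteins, not the proteins themselves or the transcripts they bind. The set holds 10 genes: Celf1, Elavl4, Fmr1 and Khsrp, which act on the stability or translation of mRNAs, Hnrnpa1, Hnrnpab and Hnrnpk of the heterogeneous nuclear ribonucleoproteins (hnRNPs), the cold-inducible proteins Cirbp and Rbm3, and the Y-box protein Ybx1.

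RNA from hippocampal synaptosomes was compared with RNA from the total hippocampus to ask which mRNAs are more abundant at synapses. Synaptosomes are nerve endings pinched off during homogenisation and purified biochemically, with pre- and postsynaptic parts attached. Both samples came from Sprague Dawley rats at postnatal day 70, with no genetic change or treatment named in the labels, and each was measured on 1 Affymetrix rat expression array. The number of animals behind each sample is not stated in the labels, so each signal below is 1 measurement without a replicate, and the groups could not be tested against each other. In such bulk RNA, fewer cells or cell parts of a type and less RNA in each cannot be told apart.

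Members were taken as every probe set, a group of oligonucleotides against 1 transcript, whose only gene symbol in the platform annotation was 1 of the 10. This gave 13 of the 8740 non-control probe sets and covered 7 genes of the 4736 named in this way. Khsrp and Rbm3 had no probe set listed under their symbols. Hnrnpk had 2 probe sets, each shared with other symbols, among them a pseudogene, so it has no value here, and 3 further probe sets listing Ybx1 together with a pseudogene were not used.

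Signals are linear intensities as deposited, already scaled to a common mean by the authors as far as the values show. On the synaptosome array 25.2% of the non-control values were at or below 0, and on the hippocampus array 31.4% were. A floor of 846, the median of the pooled non-control values, was therefore set before taking log2. Each log2 ratio is synaptosomes minus total hippocampus, centred by adding 0.17, and folds include this centring, which multiplies the quotient of synaptosomes over hippocampus by 1.13. As a gauge of noise, 95% of the negative readings had sizes below 2912.6 on the synaptosome array and below 5280.25 on the hippocampus array. Of the 13 probe sets, 8 exceeded the floor on both arrays, 2 in hippocampus only and 3 on neither. A filter on the mean level kept 10 probe sets of 5 genes, the 2 seen above the floor in hippocampus alone among them. In the plot of signals by array, the 3 Celf1 probe sets have the widest gaps with synaptosomes on the right.

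**Figure D1:**
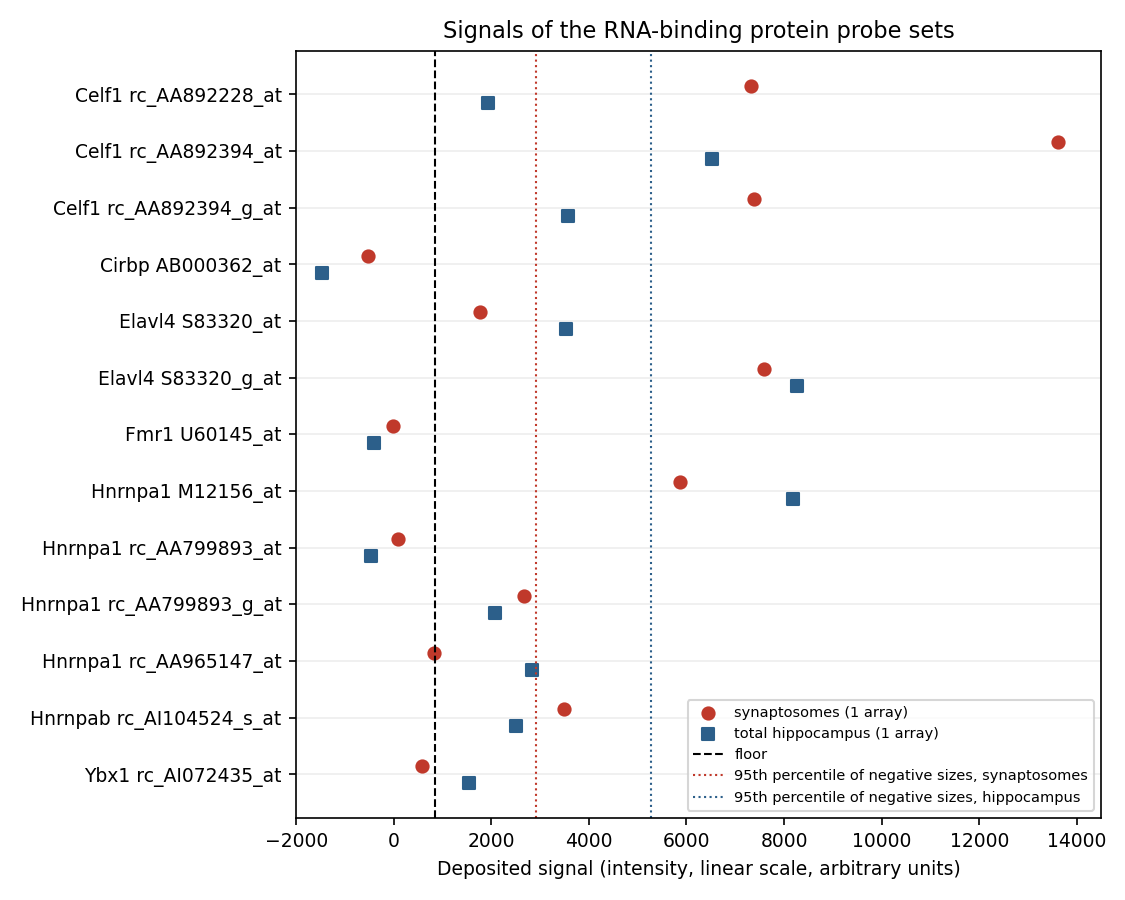
Deposited signal (linear intensity, arbitrary units) of each of the 13 probe sets in synaptosomes (red circles) and total hippocampus (blue squares), 1 array each. The dashed line is the floor of 846, and the dotted lines at 2912.6 (synaptosomes) and 5280.25 (hippocampus) are the 95th percentiles of the size of negative readings. All 3 Celf1 circles lie right of their squares, while Cirbp, Fmr1 and 1 Hnrnpa1 probe set lie left of the floor on both arrays.

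Celf1, which binds GU-rich elements and acts on splicing, decay and translation of mRNAs, had a higher signal in synaptosomes with all 3 of its probe sets. Probe set rc_AA892394_at read 13608 in synaptosomes, against 6526 in total hippocampus, 2.35-fold higher, a log2 ratio of 1.23. Its companion on the same source sequence, rc_AA892394_g_at, read 7376 in synaptosomes, against 3571 in total hippocampus, 2.32-fold higher, a log2 ratio of 1.22. Probes against another expressed sequence of the gene, rc_AA892228_at, read 7325 in synaptosomes, against 1930 in total hippocampus, 4.27-fold higher, a log2 ratio of 2.09. The gene is thus represented by 2 source sequences that pointed the same way and differed in size. Over its 3 probe sets the log2 ratio averaged 1.51 ± 0.50 (SD between probe sets, which share their 2 RNA samples and are not replicates). The hippocampus readings of rc_AA892228_at and rc_AA892394_g_at lay within the range of negative sizes on that array, so the sizes of those folds are uncertain, whereas both readings of rc_AA892394_at lay above it. With the floor raised to 5280.25, a setting chosen after the data were seen, rc_AA892394_at kept a log2 ratio of 1.15. The other Celf1 probe sets then gave bounds of 0.56 and 0.57, below 2-fold.

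Elavl4 encodes HuD, a neuronal protein that binds AU-rich elements and stabilises its target mRNAs. Both of its probe sets come from 1 source sequence. Probe set S83320_g_at read 7583 in synaptosomes, against 8273 in total hippocampus, a log2 ratio of 0.04 that was -0.13 without centring. Probe set S83320_at read 1762 in synaptosomes, against 3540 in total hippocampus, 1.79-fold lower, a log2 ratio of -0.84. Both uncentred signals were lower in synaptosomes, but only S83320_g_at exceeded the range of negative sizes on both arrays, and it was near equality. Without centring S83320_at had a log2 ratio of -1.01 and passed 2-fold.

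Fmr1 encodes FMRP, an RNA-binding repressor of translation whose loss causes fragile X syndrome. Its only probe set, U60145_at, read -20 in synaptosomes, against -415 in total hippocampus. Both readings lay under the floor, so neither the presence of this mRNA nor a difference was detectable. Khsrp, a KH-domain protein that promotes decay of AU-rich mRNAs and whose rat form, MARTA1, is known for binding the dendritic targeting element of Map2 mRNA, was not measured under its own symbol.

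Among the hnRNPs, which coat nascent transcripts and follow many of them through splicing and export, Hnrnpa1 was divided over its 4 probe sets. Probe set M12156_at, the only one with both readings above the range of negative sizes, read 5858 in synaptosomes, against 8185 in total hippocampus, 1.24-fold lower, a log2 ratio of -0.31. Probe set rc_AA799893_g_at read 2671 in synaptosomes, against 2067 in total hippocampus, 1.45-fold higher, a log2 ratio of 0.54. These differences have opposite signs and neither reached 2-fold. Probe set rc_AA965147_at read 828 in synaptosomes, just under the floor, and 2832 in the total hippocampus, at least 2.98-fold lower. Its hippocampus reading lay within the range of negative sizes. A floor of 2798.5 lies just under that reading and gave a log2 ratio of 0.066. That value was fixed by the floor and the centring, so it cannot test the difference, whose size depends on the floor chosen. The companion rc_AA799893_at read 79 in synaptosomes, against -472 in total hippocampus, under the floor on both. The log2 ratio over the 3 probe sets past the filter averaged -0.45 ± 1.06 (SD between probe sets), and its spread exceeded its size. Hnrnpa1 has many processed pseudogenes in mammals, so which copies each probe set reads is uncertain.

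Hnrnpab encodes CBF-A, an hnRNP known for binding trafficking elements in mRNAs that are carried into neuronal processes. Its probe set rc_AI104524_s_at read 3492 in synaptosomes, against 2503 in total hippocampus, 1.57-fold higher, a log2 ratio of 0.65. The hippocampus reading lay within the range of negative sizes, and the difference did not reach 2-fold.

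Ybx1 encodes YB-1, a cold-shock-domain protein that packages mRNAs in the cytoplasm and affects their translation. Its probe set rc_AI072435_at read 580 in synaptosomes, under the floor, and 1545 in the total hippocampus, at least 1.62-fold lower. Both readings lay within the range of negative sizes of their arrays, so the bound is not a guaranteed minimum. Cirbp, an RNA-binding protein induced by mild cold, read -527 in synaptosomes, against -1476 in total hippocampus with AB000362_at and was not detectable on either array.

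Of the 10 probe sets past the filter, 3 were at least 2-fold higher in synaptosomes, all of them Celf1, where 19.4% of the 3569 filtered probe sets with 1 gene symbol were. Another, of Hnrnpa1, was at least 2-fold lower, where 14.5% of all were, and 6 lay between. Without centring, 2 were at least 2-fold lower, the second being Elavl4 S83320_at. The median log2 ratio of the 10 was 0.29, beside 0.00 over all 3569. The shares are those of a set in which 1 gene supplies 3 of the 10 values. Counted by gene mean, 1 of 5 genes was at least 2-fold higher and 0 lower, with a median of -0.40 over the 5. Of all 2735 genes with a filtered probe set, 488 were at least 2-fold higher by gene mean and 379 lower.

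**Figure D2:**
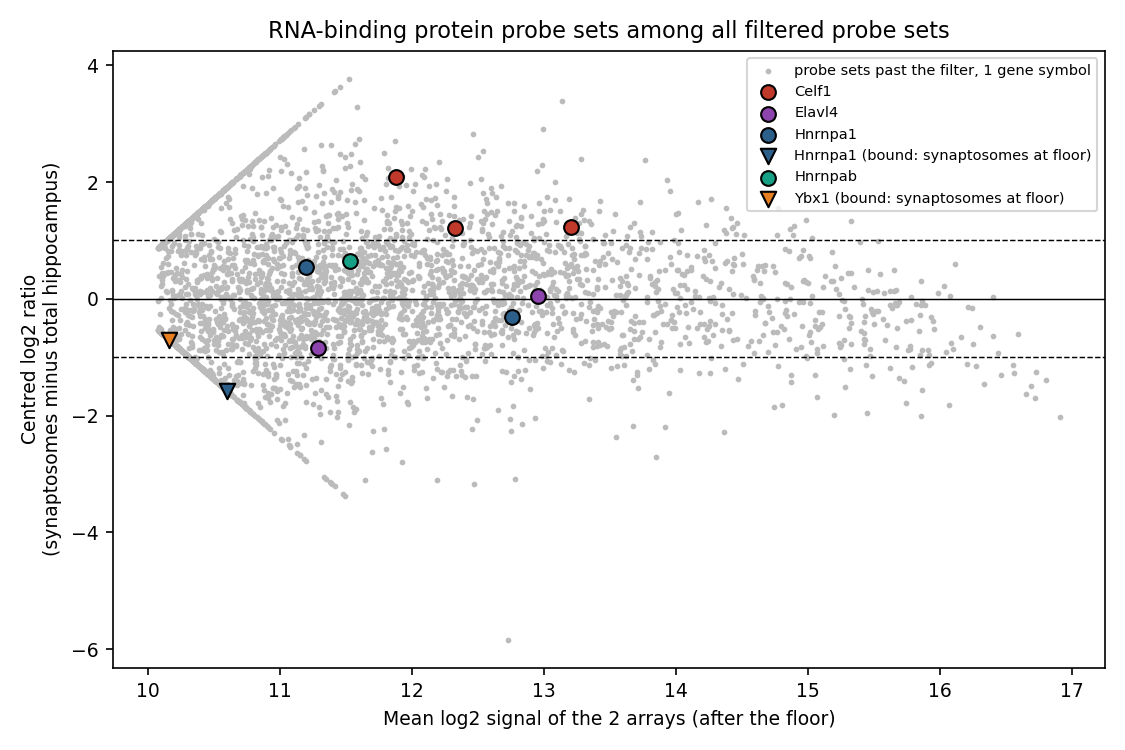
Centred log2 ratio (synaptosomes minus total hippocampus) against the mean log2 signal of the 2 arrays for 3569 filtered probe sets (grey) and the 10 probe sets of Celf1, Elavl4, Hnrnpa1, Hnrnpab and Ybx1 (colours). Triangles have synaptosomes at the floor, and dashed lines mark 2-fold. The 3 Celf1 points lie above the upper line at 1.22 to 2.09, and the other points above the floor on both arrays lie between the lines.

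The only error the arrays allow is that between probe sets. Where a _at and a _g_at probe set had 1 source sequence and all 4 signals were above the floor, 194 pairs in all, the SD of a single log2 ratio was 0.59 and the median difference within a pair was 0.49. The Celf1 pair differed by 0.01 and the Elavl4 pair by 0.88. The Celf1 pair lay closer together than the median pair, and the Elavl4 pair lay farther apart. For the 658 genes with more than 1 filtered probe set, the SD within a gene was 0.90. Over all 278 pairs past the filter, those with a signal at the floor included, the SD of a single ratio was 0.78. Each Celf1 ratio was larger than these SDs. The bound of Hnrnpa1 rc_AA965147_at was also larger in size, but its synaptosome value is the floor itself. With the floor at percentile 75, just under its hippocampus reading, the log2 ratio of rc_AA965147_at was 0.066. The size of this bound depends on the floor chosen, so the SDs cannot gauge it. The other ratios of Hnrnpa1, those of Elavl4 and Hnrnpab and the bound of Ybx1 were smaller in size than the within-gene SD. These SDs leave out animals, preparations and amplifications.

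**Figure D3:**
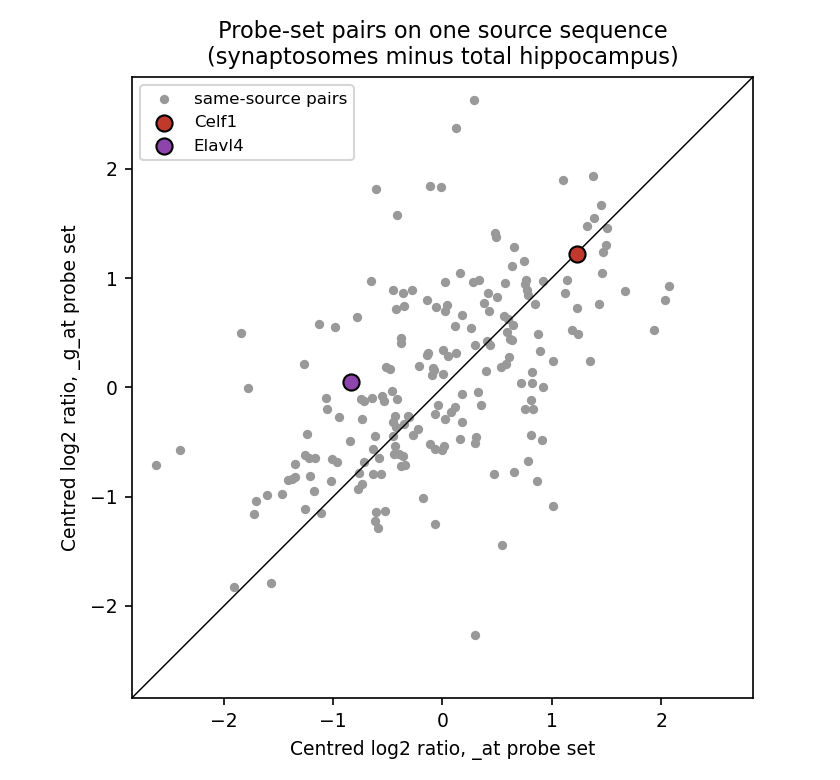
Centred log2 ratio (synaptosomes minus total hippocampus) of the _g_at against that of the _at probe set for 194 pairs on 1 source sequence with all signals above the floor. The line marks equal ratios. The Celf1 pair (red) lies on it at 1.23 and 1.22, and the Elavl4 pair (purple) lies off it at -0.84 and 0.04.

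Of 146 genes with at least 3 filtered probe sets, 41 had every ratio above 0 and 4 had every ratio at least 2-fold higher in synaptosomes. The 4, named after their values were seen, were Celf1, Kctd13, Me1 and Prkcb, each with 3 probe sets. Several such sets share a source sequence, as in Celf1, so these are not independent readings.

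Other RNA-binding proteins of the same kinds were taken from 4 wider lists. These name 86 genes, of which 27 had a probe set of their own on the array. Of their 24 probe sets past the filter, 1 was at least 2-fold higher in synaptosomes, 3 were at least 2-fold lower and 20 lay between, beside the 19.4% and 14.5% over all filtered probe sets. Their median log2 ratio was 0.09.

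Of 21 hnRNPs and related proteins, 7 passed the filter with 11 probe sets and a median of 0.13, which was -0.04 without centring. Hnrnpa2b1, which binds trafficking elements in neuronal and oligodendrocyte mRNAs, was 2.28-fold higher with rc_AA799511_at, with signals of 2318 in synaptosomes, against 1144 in total hippocampus. Its companion on the same source sequence, rc_AA799511_g_at, had a log2 ratio of 0.53, with a hippocampus reading of 2582, within the range of negative sizes. Probe set rc_AA799523_g_at read 5947 in synaptosomes, against 8821 in total hippocampus, a log2 ratio of -0.40. It alone had both readings above that range, and the gene was divided like its relative Hnrnpa1. Ptbp1, a splicing repressor that gives way to a relative as neurons form, was 3.06-fold lower with rc_AA891901_g_at, which read 1327 in synaptosomes, against 4575 in total hippocampus. Its 3 other probe sets did not pass the filter. For both rc_AA799511_at and rc_AA891901_g_at, the readings lay within the range of negative sizes on both arrays.

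Among 27 splicing and stability regulators, 5 genes passed with 7 probe sets and a median of -0.18, which was 0.15 with gene means and 0.085 over probe sets above the floor on both arrays, so its sign is not settled. Zfp36, which directs AU-rich mRNAs to decay and so acts opposite to HuD on that element, was at least 2.02-fold lower with rc_AA800613_at and had a log2 ratio of -0.50 with X63369cds_at. Probe set rc_AA800613_at read 822 in synaptosomes, against 1919 in total hippocampus, both within the range of negative sizes. Probe set X63369cds_at read 6298 in synaptosomes, against 10033 in total hippocampus. Celf2, the relative of Celf1 on the array, lay under the floor on both arrays with both of its probe sets, so the CELF family cannot be compared within itself.

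Of 28 RNA granule proteins, 3 genes passed with 3 probe sets, and none reached 2-fold. Cyfip2, a partner of FMRP and of the actin-regulating WAVE complex, read 20755 in synaptosomes, against 13317 in total hippocampus, a log2 ratio of 0.81. Eif4e, the cap-binding initiation factor, read 2278 in synaptosomes, against 4565 in total hippocampus, a log2 ratio of -0.83. The ratios of Cyfip2 and Eif4e lay on opposite sides of 0. Both Eif4e readings lay within the range of negative sizes, whereas both Cyfip2 readings lay above it. Among 10 cold-inducible and Y-box relatives, 2 genes passed with 3 probe sets, and Rbmx, a nuclear splicing protein, was 2.11-fold lower with signals of 1074 in synaptosomes, against 2553 in total hippocampus, both within the range of negative sizes.

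**Figure D4:**
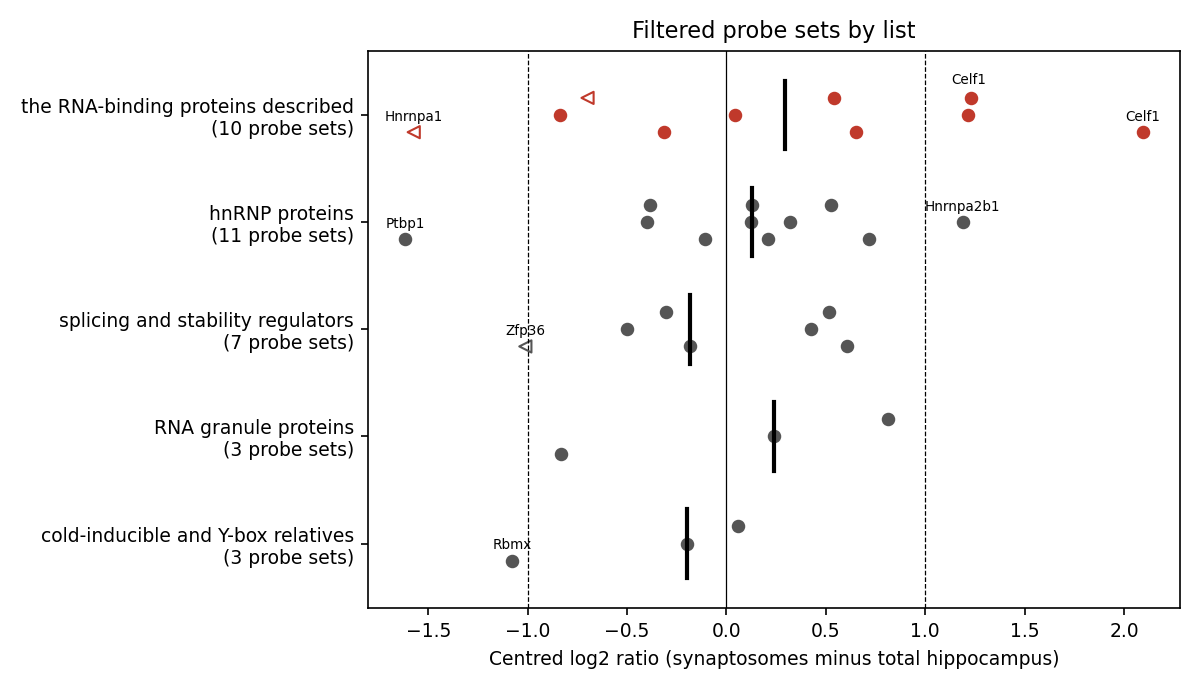
Centred log2 ratio (synaptosomes minus total hippocampus) of the filtered probe sets of the RNA-binding proteins described (red) and of the 4 wider lists (grey), with the number of probe sets beside each name. Open triangles have synaptosomes at the floor, black bars are medians, dashed lines mark 2-fold and genes past it are named. Celf1 holds all 3 values past 2-fold on the right in the top row, and 1 value of Hnrnpa2b1 does so in the lists.

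Cell type markers also differed between the arrays, and their part in the values above was not tested. Summed over oligodendrocyte markers, negative readings taken as 0, the signal was 33178 in synaptosomes, against 81894 in total hippocampus. Of 10 filtered probe sets, 6 were at least 2-fold lower, of Mobp, Mog and Mbp, and 1 was at least 2-fold higher. The higher one was Cnp, 2.67-fold, and Mag was 1.91-fold higher with X06554cds_s_at and 1.05-fold lower with M22357_g_at. The sums of astrocyte markers were close, 255009 in synaptosomes, against 268208 in total hippocampus, with 2 of 11 probe sets at least 2-fold higher and 1 lower. The single genes were not all close. Aldoc, the brightest of them, was 1.40-fold and 1.11-fold lower, while S100b was 2.53-fold higher with its filtered probe set. Slc1a2 was divided, from 2.36-fold higher to 2.85-fold lower. Neuronal markers summed to 104658 in synaptosomes, against 277030 in total hippocampus, with 3 of 9 probe sets at least 2-fold lower, all of Snap25. Snap25 carried this sum, and without it the markers summed to 29037 in synaptosomes, against 22359 in total hippocampus, with Nefl 1.51-fold and 1.81-fold and Syt1 1.28-fold higher. Both Syt1 readings lay within the range of negative sizes. Of the markers of excitatory hippocampal neurons, Camk2a had log2 ratios of -0.22 and 0.15, Neurod2 was at least 1.84-fold higher, and Slc17a7 was under the floor on both arrays. All readings of Camk2a and Neurod2 lay within the range of negative sizes, so the bound of Neurod2 is not a guaranteed minimum. The sums of endothelial markers were 4747 in synaptosomes, against 12999 in total hippocampus, with 2 of 3 filtered probe sets at least 2-fold lower. Flt1 was 2.31-fold and Kdr at least 4.09-fold lower, Pecam1 was 1.30-fold higher, and Vwf was under the floor on both arrays. Of these readings only that of Flt1 in hippocampus exceeded the range of negative sizes. Microglial markers summed to 18421 in synaptosomes, against 6805 in total hippocampus, mostly from Aif1. Its filtered probe sets were 6.70-fold and 1.97-fold higher, the first with a hippocampus reading of 1267, within the range of negative sizes. Another Aif1 probe set, Csf1r and Itgam were under the floor on both arrays. C1qb read 901 in synaptosomes, against -4713 in total hippocampus, with 1 probe set, and its other was under the floor on both arrays. Blood markers summed to 8354 in synaptosomes, against 36978 in total hippocampus, mostly from 1 Hbb probe set with 6811 in synaptosomes, against 35126 in total hippocampus, while Alas2 was 1.07-fold lower.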

How the data were processed

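The deposited table holds 1 intensity per probe set for 1 synaptosome array and 1 total hippocampus array. Per the labels' protocols, cDNA was made with a SMART kit and an oligo(dT) primer and used to transcribe biotin-labelled cRNA. How the arrays were scanned and background-corrected is not given in the sources used here. After removal of the lowest and highest 2% the mean was 2504 in synaptosomes and 2505 in hippocampus, so the authors' scaling was kept. Values under the floor (percentile 50 of the pooled non-control values) were set to it, log2 was taken, and the median log2 ratio of probe sets at or above percentile 50 of the mean level, -0.17, was subtracted. A fold with 1 array at the floor is written "at least". Probe sets were named from the platform annotation; all 7 measured genes were found in the RefSeq table of GRCr8, with 0 symbols changed. All probe sets of the members were named, and from the wider lists those past 2-fold, up to 4 a direction; others named were chosen after their values were seen. The members and lists were chosen with earlier results of these data known. Alternatives changed the floor, filter, centring, scaling, probe designs and summary by gene. Python 3.11.15, NumPy 2.4.6, pandas 2.3.3, statsmodels 0.14.6 and matplotlib 3.10.9 were used, and the ratio calculation was tested on simulated data.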

Additional observations from a re-analysis of the deposited data

How the results depend on the processing

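With 1 array a group, no replicate could be left out. No paired analysis was possible because each group had 1 array. The log2 ratios of Celf1 were above 0 in every alternative run. Changing the floor, the filter or the probe sets kept cannot reverse which signal is larger, so only centring and scaling bear on the sign. Read by itself, rc_AA892394_at stayed between 1.06, without centring, and 1.25, without suffixed probe sets. The mean over the probe sets of Celf1 was 1.51. Members at least 2-fold higher numbered 3 of 10 without centring, without the filter and with the alternative scalings. With the floor at percentile 75 or only above the floor on both arrays they numbered 3 of 8. With the filter at percentile 75 they numbered 3 of 6. Without suffixed probe sets they numbered 2 of 6, with gene means 1 of 5 and with the floor at 5280.25 also 1 of 5. The last setting was added after the data were seen. The counts of lower members, given next, have the same totals. Members at least 2-fold lower numbered 2 without centring and 0 with the floor at percentile 75, the filter at percentile 75, probe sets above the floor on both arrays, gene means and the floor at 5280.25. Hnrnpa1 rc_AA965147_at was at 0.066 with the floor at percentile 75, where its hippocampus reading barely exceeds the floor. Over all probe sets, those higher and lower numbered 694 and 518. They numbered 215 and 181 with the floor at percentile 75, 249 and 215 with the filter at percentile 75, 360 and 317 above the floor on both arrays, and 94 and 105 with the floor at 5280.25. The lower ones numbered 336 without suffixed probe sets. These settings test fewer probe sets or raise the floor. Higher probe sets made up 57.3% of those past 2-fold, and 43.3% without centring. The members past the filter had a median log2 ratio that ranged from -0.49 to 0.89 over the alternatives, so its sign is not settled. Signals near the negative readings limit the precision for all members but 3 probe sets, 1 each of Celf1, Elavl4 and Hnrnpa1.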
